A study of Mus musculus with 12 samples.

Results

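The genes described here build, crosslink and anchor actin filaments in spheroids of NMuMG cells, a normal mouse mammary epithelial line, after 4 h with GDF11 or TGFB1. They are a fixed list of 37 genes of the actin cytoskeleton and of focal adhesions, chosen with earlier results of these data known. Their probes were found by the gene symbol printed beside each array probe. Of the 37 genes, 31 had at least 1 probe (53 probes), and 28 of these had a probe detected on at least 4 of the 12 arrays, against 9134 genes tested on the whole array. Detection means a p-value under 0.05 for signal above the negative control beads. The 6 genes with no probe under their symbol (*Actg1*, *Cnn3*, *Tagln2*, *Myl9*, *Parvb* and *Ezr*) are not analysed here. Another 3 had probes that missed the detection limit, with *Tpm2* detected on at most 2 arrays by any of its 3 probes and *Cnn1* and *Tagln* on 0 arrays. On the other side of the limit, *Tln1* was the tested gene detected on the fewest arrays, with 5. *Diap1* is the array's older symbol for *Diaph1*.

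Spheroids were kept for 6 days on Matrigel, an extract rich in laminin and collagen IV. They then spent 4 h with GDF11 at 250 ng/mL, with TGFB1 at 50 ng/mL or in serum-free medium without ligand, with 4 biological replicates per group, each pooled from 2 wells. All 3 groups are the same unmodified line in the same medium, and the ligand doses differ, so a difference between the ligands is a difference between these doses. Total RNA was measured on 1-colour Illumina beadchips, 1 array per replicate. Values are log2 signals after normalization between arrays, a change is a difference of log2 means, and a gene is called where limma's adjusted p over all 9134 genes was under 0.05. The measurement is of whole spheroids, so a change in the cells present and a change of RNA per cell cannot be told apart. Levels of different probes are on different scales and are not set against each other.

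Actin filaments are polar polymers that grow at their barbed ends with the help of profilin, formins and Ena/VASP proteins and are cut by cofilin. Alpha-actinins and filamins crosslink them, and tropomyosin, caldesmon and calponin lie along them in contractile stress fibres. Focal adhesions tie these fibres through talin, vinculin, paxillin and LIM-domain proteins such as zyxin to integrins bound to the matrix. Moesin and radixin join filaments to the plasma membrane, and *Lima1* encodes EPLIN, which stabilises filaments along epithelial junctions. Both GDF11 and TGFB1 belong to the TGF-beta family and activate SMAD2 and SMAD3 through type I receptor kinases, and in NMuMG cells TGFB1 is known for epithelial to mesenchymal transition with stress fibre assembly. Many genes of filaments and adhesions are known targets of serum response factor (SRF), which binds a DNA motif called the CArG box and whose cofactors of the MRTF family are held in the cytoplasm by free actin monomers.

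The promoters printed here are those of the 4 tested members that hold a CArG box, whether or not the arrays called them. RefSeq promoters (build GRCm38.p6, 250 bases before to 50 bases after each start site) matched 33 of the 37 genes, 25 of them tested. A CArG box, written as CC, 6 letters that are each A or T, and GG, and searched on both strands, stood in the promoters of 6 of the 33 genes (18.2%), against 1.81% of the 27025 genes in the promoter table. The 6 genes were *Cnn2*, *Fhl2*, *Lima1*, *Vcl* and the unmeasured *Actg1* and *Myl9*. The sequences below run 5′ to 3′ on the strand of the gene, with the CArG box in capitals. Those of *Lima1* (chr15:99820100-99820399, minus strand), *Vcl* (chr14:20929148-20929447, plus strand) and *Cnn2* (chr10:79988350-79988649, plus strand) begin their boxes 47, 227 and 56 bases before the start site. *Fhl2* has 2 start sites with a box each, at chr1:43196712-43197011 and chr1:43163912-43164211 (both minus strand), beginning 96 and 31 bases before the start.
Lima1: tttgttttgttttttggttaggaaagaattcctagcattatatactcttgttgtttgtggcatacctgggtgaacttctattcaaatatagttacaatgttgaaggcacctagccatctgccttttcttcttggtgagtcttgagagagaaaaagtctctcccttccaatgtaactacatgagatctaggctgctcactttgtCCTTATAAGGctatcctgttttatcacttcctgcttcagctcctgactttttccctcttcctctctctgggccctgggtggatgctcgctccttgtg
Vcl: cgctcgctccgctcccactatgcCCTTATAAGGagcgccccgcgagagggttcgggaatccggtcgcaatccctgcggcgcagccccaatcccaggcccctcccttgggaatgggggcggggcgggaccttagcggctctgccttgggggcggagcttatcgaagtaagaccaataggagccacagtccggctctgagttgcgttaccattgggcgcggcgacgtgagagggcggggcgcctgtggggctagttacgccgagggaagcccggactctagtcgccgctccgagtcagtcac
Cnn2: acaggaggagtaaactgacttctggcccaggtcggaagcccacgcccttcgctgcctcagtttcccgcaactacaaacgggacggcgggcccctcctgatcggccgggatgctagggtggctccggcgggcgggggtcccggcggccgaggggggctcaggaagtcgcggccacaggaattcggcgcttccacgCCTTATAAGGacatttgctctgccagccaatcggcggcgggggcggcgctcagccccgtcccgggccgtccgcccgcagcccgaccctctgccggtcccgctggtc
Fhl2, first promoter: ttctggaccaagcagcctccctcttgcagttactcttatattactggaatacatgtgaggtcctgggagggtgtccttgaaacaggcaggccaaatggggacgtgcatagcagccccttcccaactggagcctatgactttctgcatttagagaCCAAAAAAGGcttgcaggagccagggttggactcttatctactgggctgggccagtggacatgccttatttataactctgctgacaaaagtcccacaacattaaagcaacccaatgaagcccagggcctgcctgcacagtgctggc
Fhl2, other promoter: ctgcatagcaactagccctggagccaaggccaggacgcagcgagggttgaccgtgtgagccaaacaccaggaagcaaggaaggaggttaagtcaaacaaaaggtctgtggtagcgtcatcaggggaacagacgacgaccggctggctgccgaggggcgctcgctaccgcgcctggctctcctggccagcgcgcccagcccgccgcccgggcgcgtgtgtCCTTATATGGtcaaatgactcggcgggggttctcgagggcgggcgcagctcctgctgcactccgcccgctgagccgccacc
The letters of the box are the same in *Lima1*, *Vcl* and *Cnn2*. With TGFB1 against serum-free medium, *Vcl*, *Cnn2* and *Fhl2* were called higher and *Lima1* lower, where 53.6% of the 28 tested members were called. Of all genes 34.4% were called, 15.7% higher and 18.7% lower, and the share among all genes with a CArG box was not counted. *Lima1*, however, lay at 0.052 above serum-free medium when arrays were scaled by their median. With a term for array brightness, described below, *Vcl* and *Fhl2* were no longer called (adjusted p = 0.0941 and 0.157). *Cnn2* stayed just under the threshold (adjusted p = 0.049), and *Lima1* was called (adjusted p = 0.000527). Other motifs were searched on both strands. The SMAD motif CAGAC stood in 11 of the 33 genes (33.3%) against 53.2% of all genes, the TEAD motif GGAATG in 8 (24.2%) against 16.6%, and the AP-1 motif TGANTCA in 4 (12.1%) against 8.97%. *Actn4* held all 3 of these in 1 promoter. *Cald1*, the gene of caldesmon, held them spread over 2 promoters, 1 without the AP-1 motif and the other without the TEAD motif. A match describes letters in a window of this length and says nothing of whether a factor binds there.

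Before the genes, a property of the arrays bears on every value. The arrays fell into a bright set, with mean raw intensities of 255 to 310, and a dim set at 149 to 165. GDF11 replicate 1 and serum-free replicates 1, 2 and 4 were dim, while GDF11 replicates 2, 3 and 4, TGFB1 replicates 1 to 4 and serum-free replicate 3 were bright. With the groups in the model, the bright and dim arrays differed after normalization for 4494 of the 9134 genes (49.2%) and for 19 of the 28 members (67.9%), 12 of them higher and 7 lower on bright arrays, where 22.7% of all genes were higher and 26.5% lower. The median size of that difference was 0.60 on the log2 scale over the members, against 0.35 over all genes. Mean raw intensity averaged 298 with TGFB1 against 189 in serum-free medium (two-sided exact permutation p = 0.0286, the smallest that 4 against 4 arrays allow). With GDF11 it averaged 251 against the same 189 (two-sided exact permutation p = 0.286). Changes of the called members are therefore given from 3 fits, on all 12 arrays, on all 12 with a term for brightness, and on the 8 bright arrays, where the lone serum-free array is assumed to vary like the others. The sign of the change turned with the term for 7 of the 28 members with GDF11 and 8 with TGFB1, and on bright arrays for 9 and 10.

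Epithelial identity and other cell types were checked by fixed marker lists. Of 8 epithelial markers 6 were tested, including *Cdh1*, *Krt8* and *Krt18*, while *Cldn3* was detected on 0 arrays. With TGFB1 they moved apart. *Krt7* rose (1.46, adjusted p = 0.00204, and 0.67 with the term, adjusted p = 0.0104). *Krt19* fell under the quantile normalization (-0.59, adjusted p = 0.00134, and -0.61 with the term, adjusted p = 0.003). On all arrays *Cdh1* (0.90, adjusted p = 0.0123), *Krt8* (1.08, adjusted p = 0.00862) and *Krt18* (1.25, adjusted p = 0.00901) were also called higher. The term ended these calls (0.25, 0.30 and 0.39), and *Cldn7* was not called (0.21). The summed linear signal of the list ranged from 13445 to 24763 with GDF11 and from 23998 to 26387 with TGFB1, against 10203 to 22052 in serum-free medium. It was higher on bright arrays, and its part in the members' changes was not tested. Smooth muscle and myoepithelial markers matter here because several members are abundant in those cells. Of 9 such markers, *Smtn* and *Krt14* were tested, and *Myh11*, *Actg2*, *Krt5* and *Trp63* were detected on 0 arrays. Both tested markers were called higher with TGFB1, *Smtn* by 0.85 (adjusted p = 0.00348, and 1.27 with the term) and *Krt14* by 1.02 (adjusted p = 0.00666, and 1.49 with the term). With GDF11 neither was called on all arrays without the term and both were with it, at 0.85 for *Smtn* (adjusted p = 0.000534) and 0.82 for *Krt14* (adjusted p = 0.0249). The sum over that list was 395 to 580 with GDF11 and 503 to 613 with TGFB1, against 286 to 399 in serum-free medium, and its part in the members' changes was not tested either. No marker of fibroblasts (of 8), endothelium (of 5) or leukocytes (of 6) reached 4 detected arrays.

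Under GDF11, 4 of the 28 members were called against serum-free medium (14.3%), all of them higher, where 9.93% of all genes tested were called, 4.78% higher and 5.15% lower. They were the genes of moesin (*Msn*), alpha-actinin 1 (*Actn1*), the LIM protein Enigma (*Pdlim7*) and caldesmon (*Cald1*). Under TGFB1, 15 members were called (53.6%), 13 higher and 2 lower, against 34.4% of all genes, 15.7% higher and 18.7% lower. The 2 lower were *Lima1* and *Lasp1*, of which *Lima1* lay at 0.052 above serum-free medium when arrays were scaled by their median, a scaling that moved the median change of all genes by 0.69 and called 20 members higher and 0 lower. Between the ligands 1 member was called (3.57%), *Lima1*, lower with TGFB1 than with GDF11, against 0.832% of all genes, 0.438% higher and 0.394% lower. The median change of the members was 0.36 with GDF11, where all genes had -0.02, and 0.48 with TGFB1, where all genes had -0.01. Both comparisons use the same 4 serum-free arrays, so their likeness is not independent. In each of them 20 of the 28 members had a positive change, and the share of all genes that did was not counted. These 20 include *Tln1*, which passed the detection limit through ligand arrays alone and is no support for the count. The GDF11 count rested on single arrays: without the dim GDF11 replicate 1 it was 16 members and 3367 of all genes, and without the bright serum-free replicate 3 it was 16 members and 2833 of all genes.

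**Figure D1:**
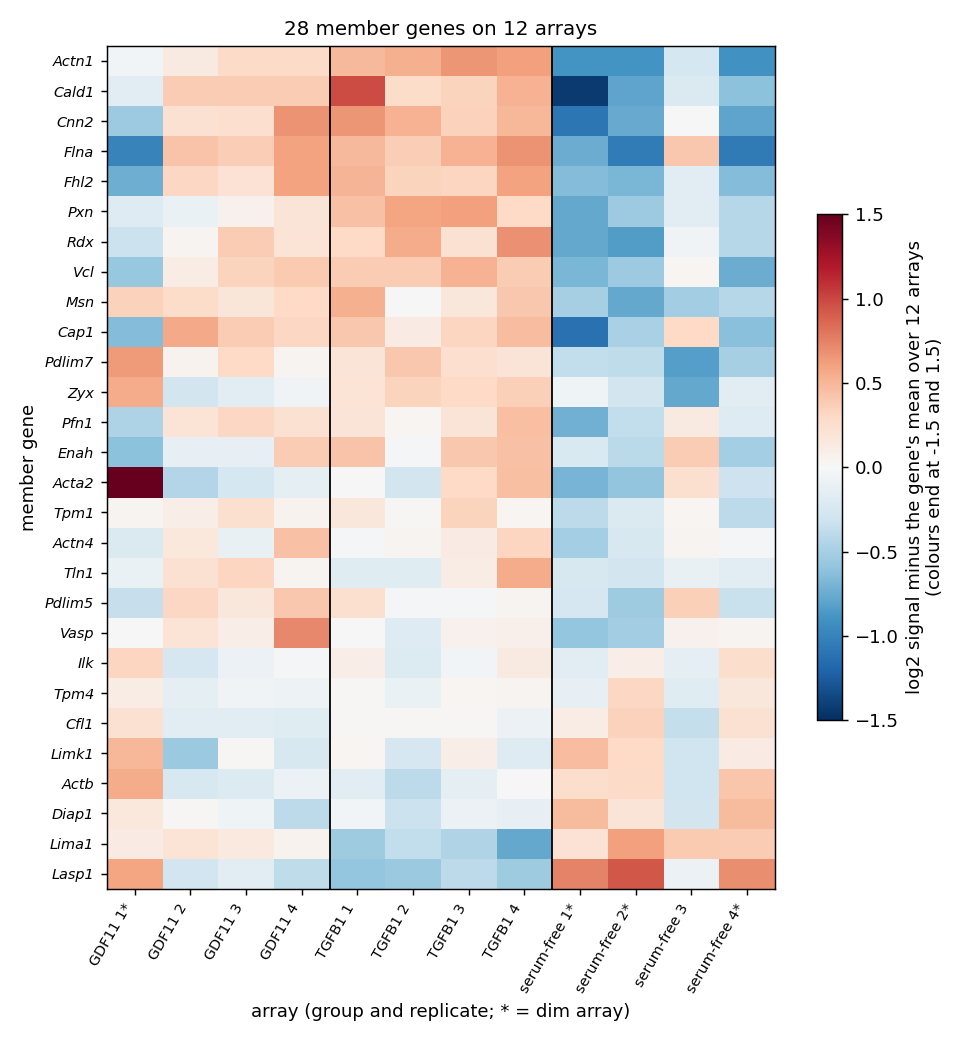
Log2 signal of the 28 tested members (rows, by their change with TGFB1) on the 12 arrays (columns, by group, dim arrays marked with an asterisk), each row shown as its difference from the gene's own mean over the arrays. *Actn1* and *Msn* are higher on every ligand array than on any serum-free array, while *Flna* and *Cap1* are low on the 4 dim arrays.

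With the brightness term, GDF11 calls numbered 4 (14.3%, against 10.4% of all genes, 5.62% higher and 4.82% lower), with *Zyx* in place of *Cald1*. TGFB1 calls numbered 9 (32.1%, against 15.9% of all genes, 7.93% in each direction), and *Flna*, *Cap1*, *Vcl*, *Fhl2*, *Rdx* and *Tpm1* were no longer called. On the bright arrays alone the counts were 4 for GDF11 (against 6.16% of all genes, 3.58% higher and 2.58% lower) and 9 for TGFB1 (against 17.1%, with 8.63% higher and 8.43% lower). The median change of the members was 0.17 with GDF11 and 0.22 with TGFB1 under the term, and 0.12 and 0.16 on bright arrays. Called in all 3 fits were *Actn1*, *Msn* and *Pdlim7* with GDF11, and with TGFB1 these same 3 plus *Cald1*, *Pxn* and *Zyx*, all higher, and *Lima1* and *Lasp1*, both lower under the quantile normalization that the 3 fits share. Groups did not overlap for 7 members with GDF11 (25%), 6 higher and 1 lower, where 10.7% of all genes were apart, 5.3% higher and 5.35% lower. *Tln1*, which passed the detection limit through ligand arrays alone, is among these 6 and is no support for them. With TGFB1 they did not overlap for 12 (42.9%), 10 higher and 2 lower, where 33.5% of all genes were apart, 15.2% higher and 18.3% lower.

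**Figure D2:**
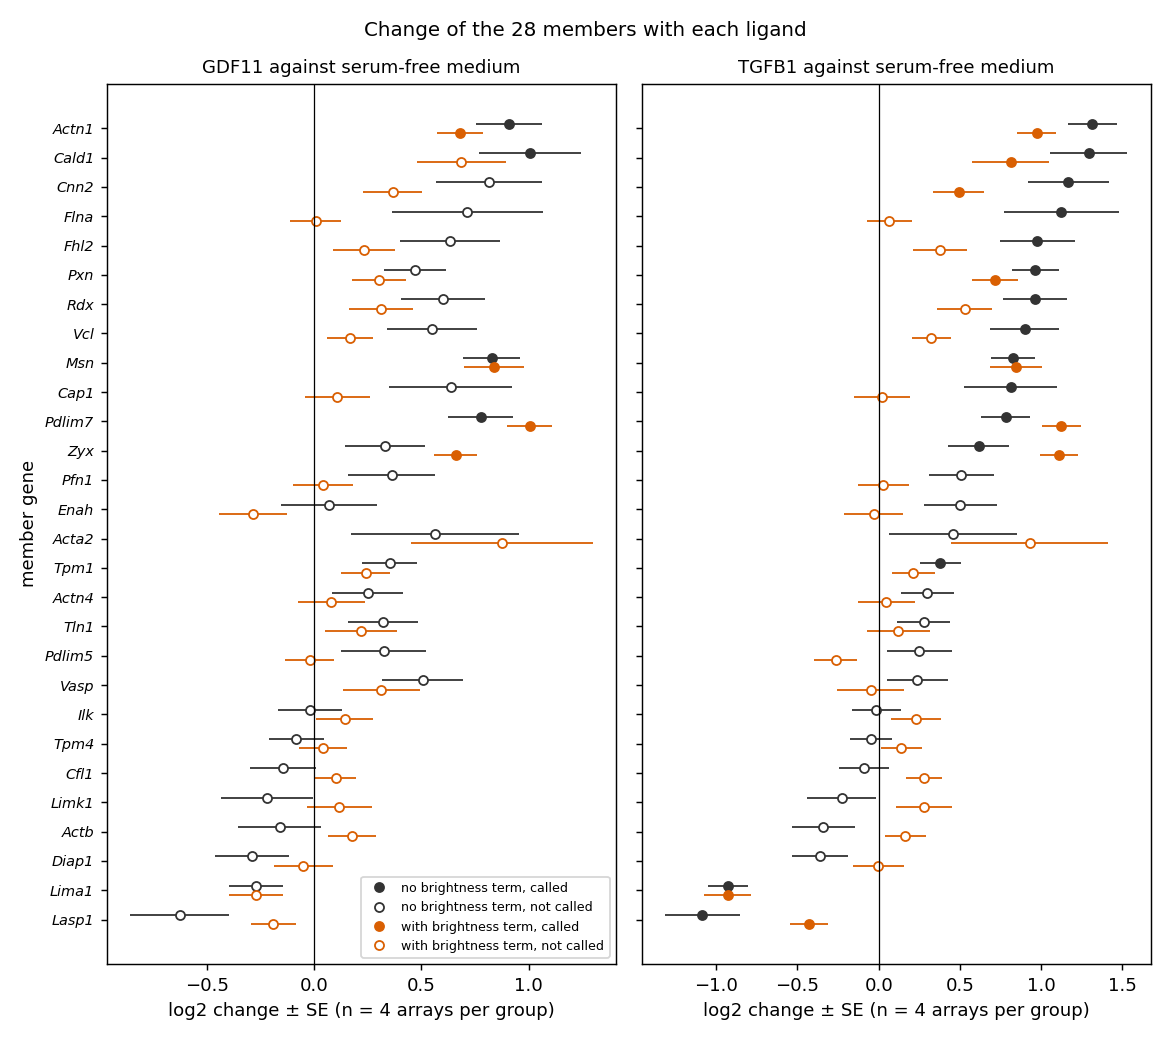
Log2 change ± SE of each member with GDF11 (left) and TGFB1 (right) against serum-free medium (n = 4 arrays per group), from the fit on all 12 arrays and from the fit with the brightness term. *Actn1*, *Msn* and *Pdlim7* keep their change in both fits, *Flna* and *Cap1* move close to 0 with the term, and *Lima1* is low with TGFB1, although it lay at 0.052 when arrays were scaled by their median.

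Among the crosslinkers, alpha-actinin 1 had the largest member change that TGFB1 gave in the fit on all arrays. *Actn1*, whose product bundles antiparallel filaments in stress fibres and ties them to adhesions, had log2 signals of 11.48, 11.65, 11.81 and 11.81 with GDF11, 12.01, 12.06, 12.19 and 12.13 with TGFB1, and 10.63, 10.63, 11.26 and 10.61 in serum-free medium. All 4 TGFB1 arrays lay above all 4 GDF11 arrays, and these above all serum-free arrays, of which the bright replicate 3 was the highest. The change was 0.91 ± 0.15 (SE) with GDF11, a 1.88-fold rise (adjusted p = 0.00206), and 1.31 ± 0.15 with TGFB1, 2.49-fold (adjusted p = 3.5e-05). With the term the changes were 0.68 (adjusted p = 0.000868) and 0.97 (adjusted p = 7.7e-05), and on bright arrays 0.50 (adjusted p = 0.0473) and 0.84 (adjusted p = 0.000521). Scaling the arrays by their median ended the GDF11 call (change 1.43, adjusted p = 0.119).

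The closely related *Actn4*, the gene of alpha-actinin 4, was not called by the probe used for it, with changes of 0.25 for GDF11 and 0.30 for TGFB1. Its other 2 probes gave TGFB1 changes of 0.79 and 0.55 (adjusted p = 0.000949 and 0.00364 in a fit over probes), which the brightness term left at 0.55 and 0.43 (adjusted p = 0.0106 and 0.0288). So the probes of this gene disagree for TGFB1. Under GDF11 those 2 probes gave 0.43 and 0.35 and were not called (adjusted p = 0.0632 and 0.0742).

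Filamin A, which crosslinks filaments at wide angles, followed the brightness of the arrays. *Flna* had 7.43, 8.86, 8.79 and 9.03 with GDF11, 8.91, 8.79, 8.95 and 9.10 with TGFB1, and 7.68, 7.38, 8.83 and 7.37 in serum-free medium. The 4 dim arrays held the 4 lowest values, and the bright serum-free array lay within the TGFB1 range. The TGFB1 change was 1.12 ± 0.35 (adjusted p = 0.0269), with the term 0.07 (adjusted p = 0.813) and on bright arrays 0.11 (adjusted p = 0.688), while bright minus dim was 1.41 ± 0.12 (adjusted p = 3.4e-06). Leaving out any of 6 arrays (serum-free 1, 2 or 4, or TGFB1 1, 3 or 4) ended the call, with adjusted p between 0.0569 and 0.0804. With GDF11 the change was 0.71 and not called, but leaving out the dim GDF11 replicate 1 gave 1.08 (adjusted p = 0.00975).

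EPLIN, the product of *Lima1*, crosslinks filaments and slows their branching and disassembly at epithelial junctions, and its mRNA was the lowest in the TGFB1 group under the normalization used here. It had 8.62, 8.71, 8.65 and 8.55 with GDF11, 7.97, 8.14, 8.06 and 7.74 with TGFB1, and 8.72, 9.12, 8.90 and 8.89 in serum-free medium. The 3 groups did not overlap, with TGFB1 lowest and serum-free medium highest, and bright and dim arrays did not separate (0.00 ± 0.13, SE). *Lima1* fell by 0.93 on the log2 scale with TGFB1 (SE 0.12, 1.9-fold, adjusted p = 0.000126), also with the term (-0.93, adjusted p = 0.000527) and on bright arrays (-0.92, adjusted p = 0.000844), while scaling by the median put it at 0.052, below the 0.69 by which the median of all genes moved. With GDF11 the change was -0.27 ± 0.12 and not called (adjusted p = 0.165), nor was it under median scaling (0.28, adjusted p = 0.56). Another *Lima1* probe gave -0.75 with TGFB1 (adjusted p = 0.00474), or -1.05 with the term (adjusted p = 0.000445).

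Of the proteins that lie along filaments, caldesmon and calponin 2 changed most. *Cald1*, whose product binds actin, tropomyosin and myosin and inhibits myosin's ATPase, had 6.05, 6.60, 6.60 and 6.60 with GDF11, 7.20, 6.49, 6.55 and 6.74 with TGFB1, and 4.78, 5.43, 6.00 and 5.60 in serum-free medium. Every ligand array was above every serum-free array, by the smallest margin between the dim GDF11 array and the bright serum-free array. For TGFB1 the change was 1.29 ± 0.24, 2.45-fold (adjusted p = 0.00147), with the term 0.81 (adjusted p = 0.0313) and on bright arrays 0.75 (adjusted p = 0.0243). GDF11 gave 1.01 ± 0.24, 2.01-fold (adjusted p = 0.0178), but the call was lost with the term (0.69, adjusted p = 0.0504), on bright arrays (0.60, adjusted p = 0.129), without GDF11 replicate 2, 3 or 4 (adjusted p from 0.0546 to 0.0591), under median scaling (1.29, adjusted p = 0.186) and in the authors' processed values (0.38 on their scale, adjusted p = 0.053). A dimmer *Cald1* probe had 0.78 with GDF11 (adjusted p = 0.082) and 1.08 with TGFB1 (adjusted p = 0.00883), the TGFB1 value being 0.49 with the term (adjusted p = 0.227).

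Calponin 2, a non-muscle member of a family that stabilises filaments, showed a similar order of groups. Its difference between bright and dim arrays was larger, at 0.90 against 0.64 for *Cald1*. *Cnn2* had 6.20, 6.97, 6.99 and 7.41 with GDF11, 7.40, 7.26, 7.09 and 7.24 with TGFB1, and 5.65, 5.98, 6.73 and 5.94 in serum-free medium. TGFB1 arrays were all above the serum-free ones, and the dim GDF11 array lay below the bright serum-free array. TGFB1 gave a change of 1.17 ± 0.25, 2.25-fold (adjusted p = 0.00383), with the term 0.49 (adjusted p = 0.049) and on bright arrays 0.51 (adjusted p = 0.0591). GDF11 gave 0.81 ± 0.25 (adjusted p = 0.0545). A dimmer probe gave 0.82 with TGFB1 (adjusted p = 0.0618) and 0.01 with the term.

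Tropomyosins form coiled coils along the filament and gate access of myosin and cofilin. *Tpm1* had 12.22, 12.27, 12.42 and 12.23 with GDF11, 12.35, 12.20, 12.51 and 12.20 with TGFB1, and 11.79, 11.96, 12.20 and 11.78 in serum-free medium. The bright serum-free array reached the lowest TGFB1 arrays and the others lay below. TGFB1 gave 0.38 ± 0.13, 1.3-fold (adjusted p = 0.0352), and the call was lost with the term (0.21, adjusted p = 0.34), on bright arrays (0.11, adjusted p = 0.684) and without serum-free 1, 2 or 4 or TGFB1 1, 3 or 4 (adjusted p from 0.0518 to 0.107). *Tpm4* had -0.08 with GDF11 and -0.05 with TGFB1, or 0.04 and 0.14 with the term, and was not called in any of the 3 fits.

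**Figure D3:**
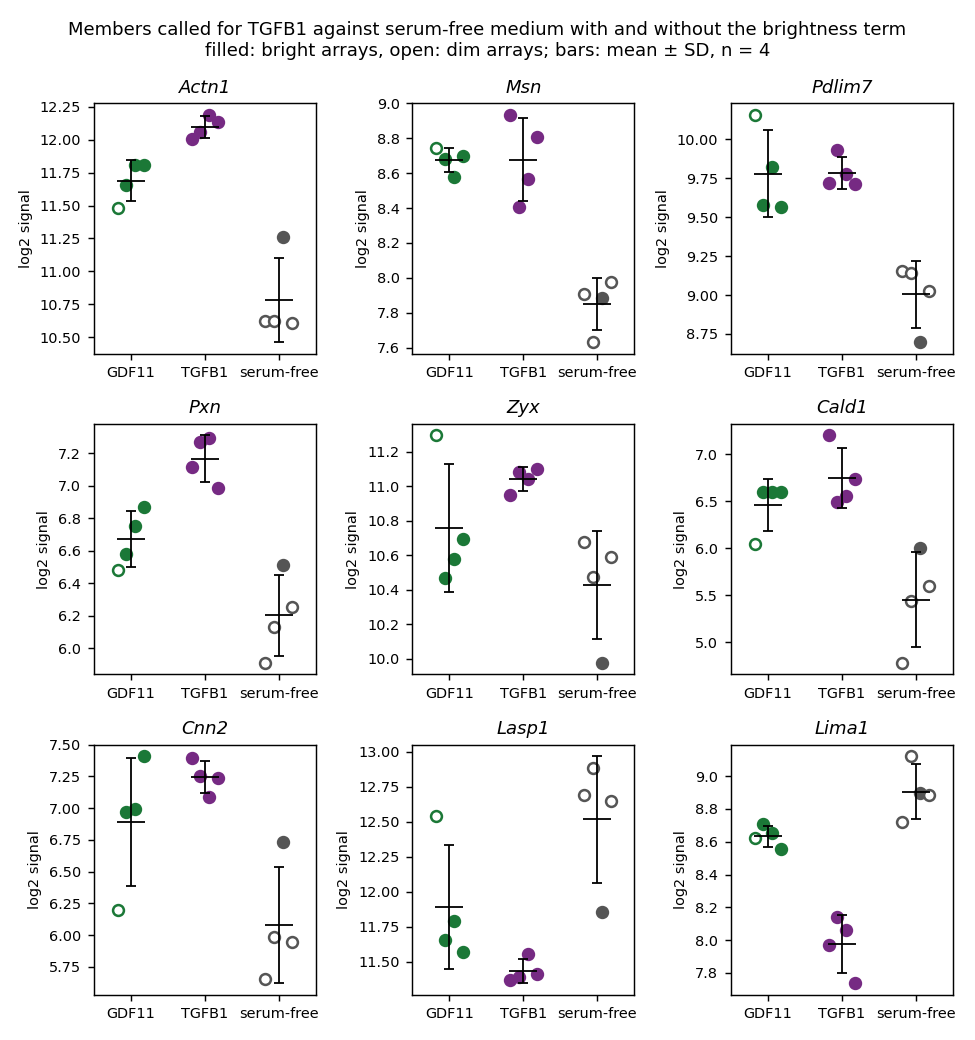
Log2 signal on each array (points; filled on bright, open on dim arrays; bars, mean ± SD, n = 4) for the 9 members called with TGFB1 in the fit on all arrays and with the brightness term. TGFB1 arrays of *Actn1* and *Pxn* lie above both other groups, those of *Lima1* below both in this normalization (0.052 above serum-free medium under median scaling), and *Msn* and *Pdlim7* are alike with the 2 ligands.

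The adhesion plaque held members of both kinds. Paxillin, a scaffold that docks kinases and vinculin at integrin tails, was called with TGFB1 in all 3 fits. *Pxn* had 6.48, 6.58, 6.75 and 6.87 with GDF11, 7.12, 7.27, 7.29 and 6.98 with TGFB1, and 5.91, 6.13, 6.51 and 6.26 in serum-free medium. All TGFB1 arrays were above all GDF11 arrays, and the dim GDF11 array lay just below the bright serum-free array. The TGFB1 change was 0.96 ± 0.15, 1.95-fold (adjusted p = 0.000339), with the term 0.72 (adjusted p = 0.00336) and on bright arrays 0.65 (adjusted p = 0.00935). With GDF11 it was 0.47 ± 0.15 (adjusted p = 0.0579), 0.30 with the term (adjusted p = 0.159) and 0.22 on bright arrays (adjusted p = 0.486). Another *Pxn* probe, detected on 6 arrays, gave 0.12 with TGFB1 (adjusted p = 0.588), so the result rests on the brighter probe.

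Vinculin couples talin to actin under tension. *Vcl* had 9.66, 10.34, 10.56 and 10.62 with GDF11, 10.61, 10.60, 10.75 and 10.61 with TGFB1, and 9.55, 9.68, 10.26 and 9.49 in serum-free medium. TGFB1 arrays stood above all serum-free arrays, and the dim GDF11 array was near the dim serum-free ones. For TGFB1 the change was 0.90 ± 0.21, 1.86-fold (adjusted p = 0.00665), which the term took to 0.32 (adjusted p = 0.0941) and the bright arrays to 0.38 (adjusted p = 0.0812). GDF11 gave 0.55 (adjusted p = 0.109), and 0.76 without its dim replicate 1 (adjusted p = 0.00533).

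Talin 1 and integrin-linked kinase, which link integrins to the cytoskeleton, were not called for either ligand. *Tln1* was detected on 3 GDF11 arrays, 2 TGFB1 arrays and 0 serum-free arrays, at 4.18 to 5.01 over the 12 arrays, so it passed the detection limit through the ligand arrays alone and is given no fold. *Ilk* lay between 9.23 and 9.80 on all arrays, with changes of -0.02 for GDF11 and -0.01 for TGFB1, or 0.14 and 0.23 with the term.

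Zyxin is recruited to strained stress fibres, where it brings in Ena/VASP proteins. *Zyx* had 11.29, 10.46, 10.58 and 10.69 with GDF11, 10.95, 11.08, 11.04 and 11.10 with TGFB1, and 10.68, 10.47, 9.97 and 10.59 in serum-free medium. Its dim arrays were the higher ones within a group, since dim GDF11 replicate 1 exceeded every other array and bright serum-free replicate 3 was lowest. TGFB1 gave a change of 0.61 ± 0.19 on all arrays (1.53-fold, adjusted p = 0.0238), 1.11 ± 0.11 with the term (adjusted p = 1.68e-05) and 1.07 ± 0.13 on bright arrays (adjusted p = 7.07e-05), and the call on all arrays was lost without TGFB1 replicate 2, 3 or 4 (0.60 to 0.61, adjusted p from 0.0529 to 0.0585). With GDF11 the change was 0.33 ± 0.19 (adjusted p = 0.252), 0.66 with the term (adjusted p = 0.000728) and 0.60 on bright arrays (adjusted p = 0.0165). Its change was larger with the term than without it for both ligands.

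Enigma, a PDZ and LIM protein that binds tropomyosin and alpha-actinin at stress fibres, was called higher with both ligands in all 3 fits. *Pdlim7* had 10.16, 9.58, 9.82 and 9.57 with GDF11, 9.72, 9.93, 9.78 and 9.71 with TGFB1, and 9.15, 9.14, 8.70 and 9.03 in serum-free medium. No ligand array overlapped the serum-free arrays. The changes were 0.78 ± 0.15 with GDF11 (1.71-fold, adjusted p = 0.00595) and 0.78 ± 0.15 with TGFB1 (1.72-fold, adjusted p = 0.00219). With the term they were 1.01 (adjusted p = 3.71e-05) and 1.12 (adjusted p = 2.31e-05), and on bright arrays 0.96 (adjusted p = 0.00121) and 1.09 (adjusted p = 0.000121). The related *Pdlim5* had 0.32 with GDF11 and 0.25 with TGFB1 (-0.02 and -0.27 with the term) and was not called, although a dimmer probe of it gave -0.46 with TGFB1 (adjusted p = 0.0441), or -0.31 with the term (adjusted p = 0.36).

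*Fhl2* encodes a LIM-only protein that binds integrins and several transcription factors. It had 8.50, 9.54, 9.45 and 9.83 with GDF11, 9.74, 9.57, 9.55 and 9.83 with TGFB1, and 8.59, 8.55, 9.07 and 8.59 in serum-free medium. The dim GDF11 array sat at the dim serum-free level and the other ligand arrays above every serum-free array. TGFB1 gave 0.98 ± 0.23, 1.97-fold (adjusted p = 0.00734), with the term 0.38 (adjusted p = 0.157) and on bright arrays 0.61 (adjusted p = 0.0206). GDF11 gave 0.63 (adjusted p = 0.1), and 0.54 on bright arrays (adjusted p = 0.0811).

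*Lasp1*, the gene of an actin-binding LIM and SH3 protein of adhesions and membrane ruffles, was lower with TGFB1. It had 12.54, 11.66, 11.79 and 11.57 with GDF11, 11.37, 11.39, 11.56 and 11.41 with TGFB1, and 12.69, 12.88, 11.86 and 12.65 in serum-free medium. Dim arrays were high and bright arrays low in every group that held both. The TGFB1 change was -1.08 ± 0.23 (adjusted p = 0.00386), with the term -0.43 ± 0.12 (adjusted p = 0.0241) and on bright arrays -0.42 (adjusted p = 0.0461), so its size with the brightness term was well under that on all arrays. Scaling by the median left -0.13 and no call (adjusted p = 0.542). GDF11 gave -0.63 (adjusted p = 0.1) and -0.19 with the term (adjusted p = 0.292). Of 2 other probes, 1 gave -0.46 with TGFB1 (adjusted p = 0.0196) and -0.55 with the term (adjusted p = 0.0284), and the other -0.22 (adjusted p = 0.158).

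At the membrane, moesin was called with both ligands in all 3 fits. *Msn*, which joins cortical filaments to membrane proteins once phosphorylated, had 8.75, 8.68, 8.58 and 8.70 with GDF11, 8.94, 8.40, 8.57 and 8.81 with TGFB1, and 7.91, 7.63, 7.89 and 7.98 in serum-free medium. The lowest ligand array stood well above the highest serum-free array, and bright and dim arrays were alike (-0.02). GDF11 gave 0.83 ± 0.13, 1.77-fold (adjusted p = 0.00153), and TGFB1 0.83 ± 0.13, 1.78-fold (adjusted p = 0.000562). With the term these were 0.84 (adjusted p = 0.00149) and 0.85 (adjusted p = 0.00229), and on bright arrays 0.77 (adjusted p = 0.0212) and 0.79 (adjusted p = 0.00637).

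Radixin, of the same family, was a dim probe detected on 1 of the 4 serum-free arrays. *Rdx* had 4.78, 5.14, 5.48 and 5.31 with GDF11, 5.39, 5.66, 5.32 and 5.79 with TGFB1, and 4.33, 4.26, 5.04 and 4.67 in serum-free medium. It passed the detection limit mostly through ligand arrays, and its serum-free level is close to background, where changes are understated. Against serum-free medium TGFB1 gave 0.96 ± 0.20 (adjusted p = 0.00287), with the term 0.53 (adjusted p = 0.0515) and on bright arrays 0.50 (adjusted p = 0.0832). GDF11 gave 0.60 (adjusted p = 0.0689).

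**Figure D4:**
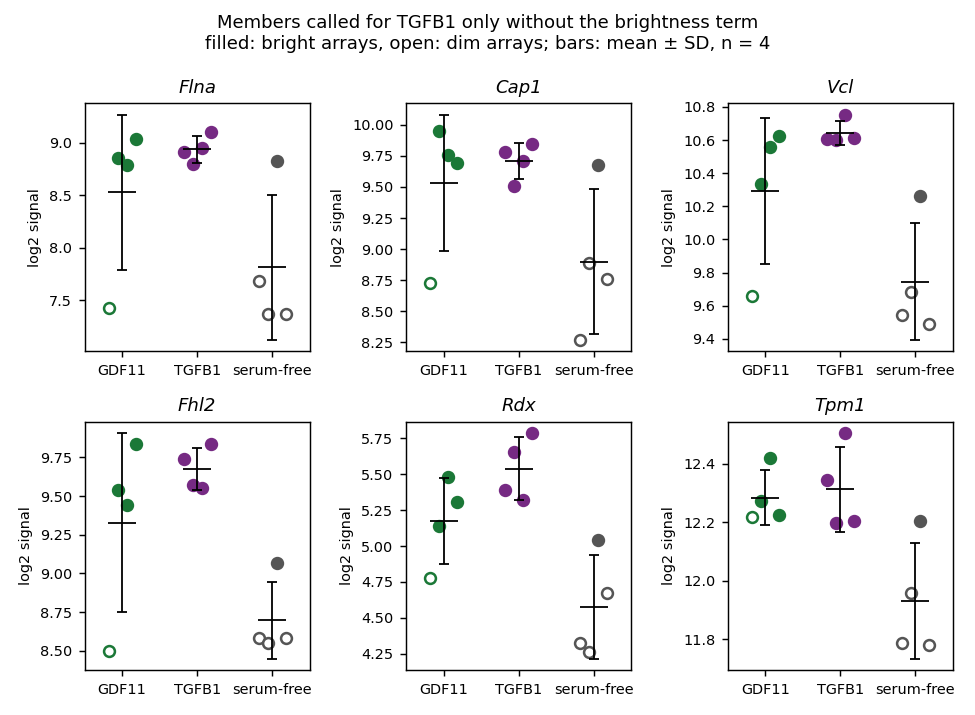
Log2 signal on each array (points; filled on bright, open on dim arrays; bars, mean ± SD, n = 4) for the members called with TGFB1 in the fit on all arrays and not with the brightness term. In *Flna*, *Cap1*, *Vcl* and *Fhl2* the dim GDF11 array lies with the dim serum-free arrays.

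Of the proteins that assemble and turn over filaments, 1 was called for a ligand on all arrays. *Cap1* encodes cyclase-associated protein 1, which recycles actin monomers with cofilin. It had 8.73, 9.95, 9.76 and 9.69 with GDF11, 9.78, 9.51, 9.71 and 9.84 with TGFB1, and 8.27, 8.89, 9.68 and 8.76 in serum-free medium. As for *Flna*, the 4 dim arrays held the 4 lowest values. GDF11 gave 0.64 (adjusted p = 0.159), and 0.11 with the term. TGFB1 gave 0.81 ± 0.29 (adjusted p = 0.0428), which the term took to 0.02 (adjusted p = 0.962), and 9 single arrays each ended the call when left out (adjusted p from 0.0521 to 0.132), all but serum-free 3 and GDF11 1 and 2.

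Profilin 1, which loads monomers onto growing barbed ends, was near the threshold. *Pfn1* lay at 10.06 to 10.84 with GDF11 and 10.56 to 10.98 with TGFB1, against 9.81 to 10.66 in serum-free medium, with a TGFB1 change of 0.51 (adjusted p = 0.0639) and 0.03 with the term. Its other probe was called with TGFB1 (0.86, adjusted p = 0.0173) and not with the term (0.17, adjusted p = 0.424). For the other genes of this role the direction depended on the fit. Cofilin 1 (*Cfl1*), which severs filaments, had -0.15 with GDF11 and -0.09 with TGFB1, but 0.10 and 0.28 with the term and 0.19 and 0.35 on bright arrays. LIM kinase 1 (*Limk1*), which inactivates cofilin by phosphorylation, had -0.22 and -0.23, but 0.12 and 0.28 with the term and 0.04 and 0.22 on bright arrays. The formin gene *Diap1* had -0.29 with GDF11 and -0.36 with TGFB1, but 0.12 and 0.13 on bright arrays. With *Pfn1*, none of these 4 genes was called for either ligand in any of the 3 fits.

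The Ena/VASP genes, whose products extend barbed ends at adhesions and leading edges, were dim. *Vasp* was detected on 2 of 4 serum-free arrays and had 0.51 with GDF11 (adjusted p = 0.103) and 0.24 with TGFB1 (adjusted p = 0.335), which were 0.31 and -0.05 with the term. *Enah* (Mena) was detected on 3 GDF11, 4 TGFB1 and 1 serum-free arrays and had 0.07 with GDF11 and 0.50 with TGFB1 (adjusted p = 0.0928), which were -0.29 and -0.03 with the term.

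The actins themselves were not called. *Actb*, the cytoplasmic beta-actin, lay at 12.71 to 13.51 with GDF11 and 12.55 to 12.94 with TGFB1, against 12.66 to 13.37 in serum-free medium, with changes of -0.16 and -0.34. The sign turned in the other fits, to 0.18 and 0.16 with the term and to 0.12 and 0.12 on bright arrays, and bright minus dim was -0.67 (adjusted p = 0.0003). Its 2 other detected probes gave -0.51 (adjusted p = 0.0502) and 0.19 (adjusted p = 0.278) with TGFB1, so the 3 probes differ in sign on all arrays. Smooth muscle actin, a marker of myofibroblasts and myoepithelium, was near background. *Acta2* had 6.78, 4.60, 4.77 and 4.90 with GDF11, 5.04, 4.77, 5.35 and 5.50 with TGFB1, and 4.35, 4.45, 5.28 and 4.74 in serum-free medium, where it was detected on 2 of 4 arrays. GDF11 replicate 1 stood far above all other arrays, and without it the GDF11 change of 0.56 was 0.057 (adjusted p = 0.856). The term gave 0.88 (adjusted p = 0.228), while on bright arrays the sign turned to -0.52. TGFB1 gave 0.46 (adjusted p = 0.374), or 0.93 with the term and -0.12 on bright arrays. Another *Acta2* probe, detected on 2 serum-free, 1 GDF11 and 1 TGFB1 arrays, had the other sign for both ligands on all arrays. It gave -0.14 with GDF11 (adjusted p = 0.59) and -0.08 with TGFB1 (adjusted p = 0.729) in a fit over probes.

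The direct comparison of TGFB1 with GDF11 separates few members. On all arrays *Lima1* was called, lower with TGFB1 by 0.66 on the log2 scale (-0.66 ± 0.12, 95% interval -0.92 to -0.39, 1.58-fold, adjusted p = 0.0217). It was called with the term (-0.66, adjusted p = 0.00729) and on bright arrays (-0.66, adjusted p = 0.00194), but not when arrays were scaled by their median (-0.23, adjusted p = 0.686). Leaving out GDF11 replicate 2, 3 or 4 or any 1 TGFB1 array ended the call in the fit on all arrays, with changes from -0.71 to -0.58 and adjusted p from 0.0518 to 0.097. Another *Lima1* probe gave -0.46 (adjusted p = 0.41), and -0.56 with the term (adjusted p = 0.0347). With the term 2 members were called (7.14%, against 2.51% of all genes, 1.28% higher and 1.23% lower), *Lima1* and, higher with TGFB1, *Zyx* (0.45 ± 0.09, adjusted p = 0.0155).

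In the fit on bright arrays, which leaves out the dim GDF11 replicate 1, 4 members were called (14.3%, against 5.87% of all genes, 3.13% higher and 2.74% lower). *Zyx* was higher with TGFB1 by 0.46 ± 0.09 (interval 0.27 to 0.66, adjusted p = 0.00781), *Pxn* by 0.43 ± 0.10 (interval 0.21 to 0.66, adjusted p = 0.0271) and *Actn1* by 0.34 ± 0.09 (interval 0.15 to 0.53, adjusted p = 0.0416), and *Lima1* was the lower gene. For *Actn1* and *Pxn* the groups also did not overlap on all arrays, with changes of 0.41 (adjusted p = 0.405) and 0.50 (adjusted p = 0.212). Groups were apart for 4 members in this comparison (14.3%), 2 higher and 2 lower, where 10.5% of all genes were apart, 4.99% higher and 5.52% lower, *Lasp1* being the fourth at -0.46 (interval -0.96 to 0.04, adjusted p = 0.633).

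For *Msn* and *Pdlim7* the interval of the difference between TGFB1 and GDF11 spanned 0. It was -0.29 to 0.29 for *Msn* and -0.32 to 0.33 for *Pdlim7* on all arrays, and -0.23 to 0.28 and -0.08 to 0.34 on bright arrays. The data thus allow a difference of up to those sizes in either direction. *Cald1* (-0.23 to 0.80) and *Cnn2* (-0.18 to 0.89) had wider intervals.

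**Figure D5:**
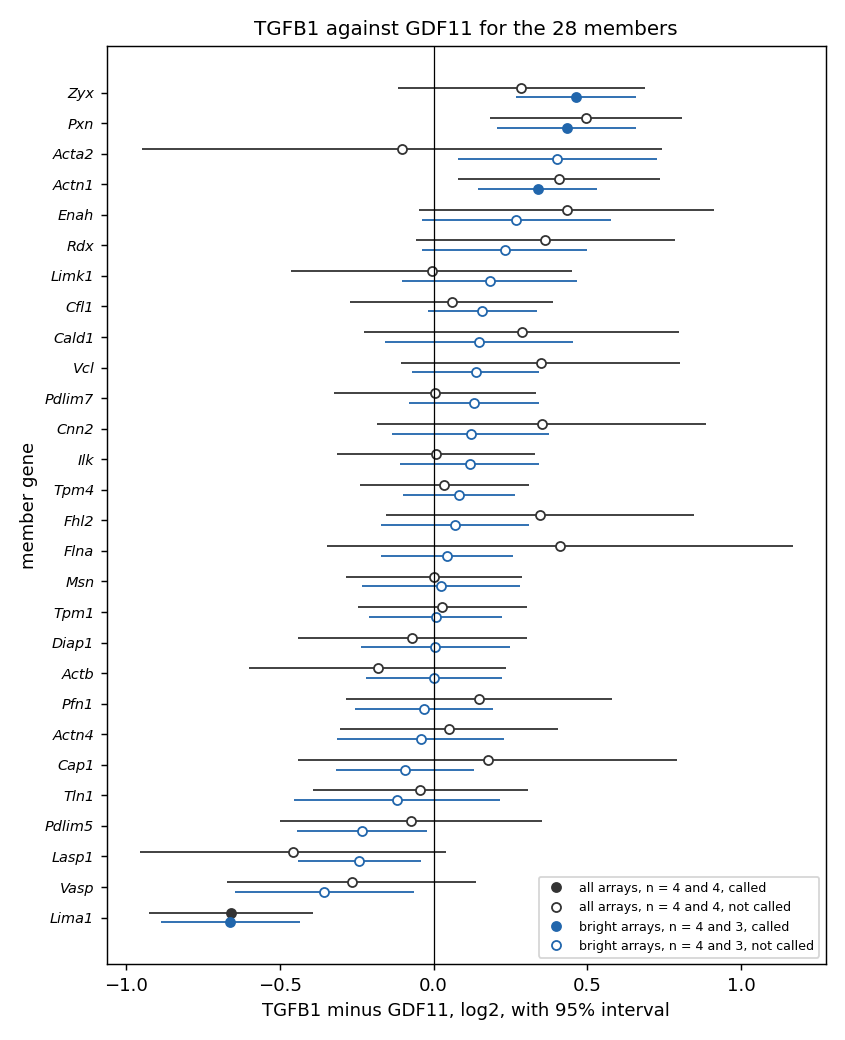
TGFB1 minus GDF11 for the 28 members on the log2 scale with 95% intervals, from the fit on all 12 arrays and from the bright arrays. The interval of *Lima1* lies below 0 in both fits, those of *Zyx*, *Pxn* and *Actn1* lie above 0 on bright arrays, and those of *Msn* and *Pdlim7* span 0.

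Other actin-related genes were drawn from 5 fixed lists, of which 74 of 97 genes were tested. With GDF11 10 of the 74 were called (13.5%), 7 higher and 3 lower, and with the term 8 (10.8%), 7 higher and 1 lower. With TGFB1 29 were called (39.2%), 18 higher and 11 lower, and with the term 13 (17.6%), 10 higher and 3 lower. Of all genes, 9.93% were called with GDF11 and 34.4% with TGFB1, and with the term 10.4% and 15.9%. Scaling by the median gave 3 higher and 0 lower with GDF11 and 45 higher and 0 lower with TGFB1. Over all 9134 genes that scaling gave 176 higher and 14 lower with GDF11, and 4190 higher and 107 lower with TGFB1. It moved the median of all genes by 0.39 and 0.69. Between the ligands limma called 0 of the 74, with 3 at an unadjusted p under 0.05, and 1 with the term, *Marcksl1*, higher with TGFB1.

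In the list of 24 adhesion plaque partners, 2 rose and 1 fell with GDF11 (12.5% called, against 9.93% of all genes), and 5 rose and 2 fell with TGFB1 (29.2%, against 34.4%). With the term 3 rose and 1 fell with GDF11 (16.7%, against 10.4% of all genes), and 5 rose and 1 fell with TGFB1 (25%, against 15.9%). *Lims2*, the gene of PINCH2, which binds integrin-linked kinase, rose by 0.97 with GDF11 (adjusted p = 0.0052) and 1.17 with TGFB1 (adjusted p = 0.00051), and had 1.23 and 1.56 with the term. *Src*, a kinase of adhesions, rose by 0.76 with GDF11 (adjusted p = 0.0234) and 0.74 with TGFB1 (adjusted p = 0.0107), calls that the term ended (0.52 and 0.39). *Fermt2*, the gene of the integrin activator kindlin-2, fell by 0.64 with GDF11 (adjusted p = 0.027), which the term also ended (-0.41, adjusted p = 0.0595), as did median scaling (-0.08, adjusted p = 0.827). *Bcar1*, the gene of the scaffold p130Cas, rose by 0.58 with TGFB1 (adjusted p = 0.0107) and had 0.24 with the term (adjusted p = 0.19). With the term, and not without it on all arrays, *Fermt1* (kindlin-1) rose by 0.66 with GDF11 (adjusted p = 0.000453) and 0.98 with TGFB1 (adjusted p = 2.92e-05), and *Pfn2* (profilin 2) fell by 0.57 (adjusted p = 0.0049) and 0.63 (adjusted p = 0.00405), where median scaling without the term gave 0.22 and 0.52.

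Of 23 bundling, capping and severing genes, 3 rose and 1 fell with GDF11 (17.4%, against 9.93% of all genes), and 6 rose and 4 fell with TGFB1 (43.5%, against 34.4%). With the term 3 rose and 0 fell with GDF11 (13%, against 10.4%), and 4 rose and 1 fell with TGFB1 (21.7%, against 15.9%). *Marcksl1*, whose product binds filaments at the membrane, rose by 1.90 with GDF11 (adjusted p = 0.000773) and 2.89 with TGFB1 (adjusted p = 7.61e-06), or 1.38 and 2.11 with the term. With the term it was higher with TGFB1 than with GDF11 by 0.73 (adjusted p = 0.00685). *Coro1c*, a coronin, rose by 0.85 with GDF11 (adjusted p = 0.0246) and 1.23 with TGFB1 (adjusted p = 0.000988), and *Cotl1*, coactosin-like protein, rose by 0.69 with TGFB1 (adjusted p = 0.00169). With the term *Coro1c* and *Tmod3* were called for both ligands. Scaling by the median without the term ended the GDF11 calls of *Coro1c* (1.38, adjusted p = 0.226) and *Tmod3* (0.95, adjusted p = 0.193). *Lcp1*, the gene of L-plastin, fell by 0.68 with GDF11 (adjusted p = 0.0232) at values between 4.36 and 5.45, and was called neither with the term (-0.53, adjusted p = 0.0629) nor under median scaling (-0.28, adjusted p = 0.282).

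The other lists gave fewer calls that did not depend on brightness. Of 16 Arp2/3 complex genes and activators, which nucleate branched filaments, 1 fell with GDF11 (6.25%, against 9.93% of all genes), and 4 rose and 3 fell with TGFB1 (43.8%, against 34.4%). With the term 2 were called with TGFB1 (12.5%, against 15.9% of all genes). These were *Wasl*, lower, and *Cttn* (cortactin), higher by 0.48 (adjusted p = 0.049), which was not called on all arrays. *Wasl*, the gene of N-WASP, fell by 0.55 with GDF11 (adjusted p = 0.0403) and by 0.75 with TGFB1 (adjusted p = 0.00348), where median scaling gave 0.21 (adjusted p = 0.423). With the term *Wasl* had -0.30 (adjusted p = 0.0711) and -0.37 (adjusted p = 0.0401). *Actr2*, an Arp2/3 subunit, rose by 0.45 with TGFB1 (adjusted p = 0.0111), and *Wasf2* (WAVE2) fell by 0.74 (adjusted p = 0.0307), at 0.14 under median scaling, and neither was called with the term. Of 8 myosin II genes and regulators, 2 rose with GDF11 (25%, against 9.93% of all genes), the myosin phosphatase genes *Ppp1cb* (0.68, adjusted p = 0.0179) and *Mprip* (0.62, adjusted p = 0.0375). With TGFB1 3 rose and 2 fell (62.5%, against 34.4%), among them *Mprip* (0.82, adjusted p = 0.00361), *Ppp1cb* (0.67, adjusted p = 0.00743) and *Myh10* (-0.44, adjusted p = 0.0122, at 0.08 under median scaling), and with the term 0 of the 8 were called by limma, although 5 had an unadjusted p under 0.05. With GDF11 *Ppp1cb* was called with the term too (0.46, adjusted p = 0.0348).

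SRF, whose motif stands in the promoters printed above, was itself not called under the quantile normalization. *Srf* had 7.65, 7.29, 7.30 and 7.51 with GDF11, 7.63, 7.82, 7.66 and 7.72 with TGFB1, and 7.47, 7.81, 7.38 and 7.72 in serum-free medium. The groups overlapped, with changes of -0.16 for GDF11 (adjusted p = 0.421) and 0.12 for TGFB1 (adjusted p = 0.508). Under median scaling *Srf* was called higher with TGFB1 (1.11, adjusted p = 0.0152), where the median of all genes moved by 0.69. With GDF11 that scaling gave 0.42 and no call (adjusted p = 0.33). Of the 6 genes in the list of SRF and its cofactors 3 were tested, *Srf*, *Myocd* and *Scai*, and the MRTF genes were not among them. On all arrays limma called 0 of the 3 for either ligand, with 0 at an unadjusted p under 0.05. With the brightness term it also called 0 for either ligand, with 1 at an unadjusted p under 0.05 with TGFB1.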

How the data were processed

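Messenger RNA of 12 spheroid samples (4 biological replicates per group, per the labels) was measured on Illumina beadchips. The deposited table holds, per the file headers, each probe's mean bead signal and its standard error, taken here as linear intensity without background correction. A detection p-value and a number of beads, another measure, stand beside them in the deposited table. The authors' processed values are log2-like, and lumi is the only tool in the submitters' processing notes. Their log base is not given in the sources used here.

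Probes were named by the table's symbols, and 14307 of 18117 were current in RefSeq, 2905 matched by synonym and 905 were kept as printed. Intensities were background corrected, quantile normalized and taken to log2 with neqc (offset 16) in limma 3.58.1 under R 4.3.3. The probe with the highest mean stood for a gene, 9134 genes were fitted with lmFit and eBayes with a mean per group, and p-values were adjusted by Benjamini-Hochberg over all genes. The offset understates changes of dim genes. The brightness term has 2 levels, divided where mean raw intensity jumps most between arrays. The procedure was tested on simulated data. Arrays give no counts, so the number of arrays limits the precision, and 41.2% to 49.6% of probes were detected per array. Replicate arrays correlated at 0.949 to 0.995 and none were identical.

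Members and lists were chosen with earlier results of these data known. Members called in at least 1 comparison, or whose call changed with brightness, are given array by array, and of each other list the up to 3 called genes with the smallest p. Another fixed list is not reported here. Same-numbered replicates deviated together (correlation over 0.1) in 3 of 12 pairs, so numbers were not used as pairs. Figures were drawn with matplotlib 3.10.9 in Python 3.11.15.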

Additional observations from a re-analysis of the deposited data

Results flagged for a closer look

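Within a group of 4 arrays, 10 of 84 tests of a member for a single array far from the other 3 (Dixon's test) found such an array, where chance gives about 1 in 20. The members share the same arrays, so these tests are not independent. The share over all genes was not counted, so the excess is no result about the members. GDF11 replicate 1, the dim array of its group, was that array in 5 of them. On it *Acta2* was high at 6.78 (others 4.60 to 4.90) and *Cfl1* at 7.51 (others 7.10 to 7.12), while *Flna* was low at 7.43 (others 8.79 to 9.03), *Cald1* at 6.05 (others 6.60) and *Pfn1* at 10.06 (others 10.74 to 10.84). Serum-free replicate 3, the bright array of its group, was high for *Actn1* at 11.26 (others 10.61 to 10.63) and for *Fhl2* at 9.07 (others 8.55 to 8.59). Among TGFB1 arrays, *Vcl* was high on replicate 3 at 10.75 (others 10.60 to 10.61), *Enah* was low on replicate 2 at 4.84 (others 5.26 to 5.30) and *Cfl1* was low on replicate 4 at 7.19 (others 7.29 to 7.30).

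Beyond the probes tested, 2 further *Acta2* probes missed the detection limit and were detected on ligand arrays alone, 1 of them on 3 TGFB1 arrays and the other on 1 TGFB1 array. The *Acta2* probes that passed the limit were each detected on 2 serum-free arrays.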

How the results depend on the processing

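The counts of members called were recomputed under other settings and without each array in turn. For GDF11 against serum-free medium (4 called) array weights gave 20, and leaving out an array gave 3 to 16, with 16 without GDF11 replicate 1 and 16 without serum-free replicate 3, the arrays whose brightness differs from their groups'. For TGFB1 against serum-free medium (15 called) the brightness term gave 9, the bright arrays 9, and leaving out an array 11 to 20. For TGFB1 against GDF11 (1 called) median scaling gave 0 by limma (2 at an unadjusted p under 0.05), the brightness term 2, the bright arrays 4, array weights 4, and leaving out an array 0 to 1. A replicate block gave 4, 16 and 1, though the numbers do not pair the samples. All other settings stayed within 1.5 times of these counts. Over all genes, GDF11 calls (907) were 190 under median scaling, 563 on bright arrays, 4485 with array weights and 444 to 3367 without an array. TGFB1 calls (3140) were 1448 with the term, 1558 on bright arrays, 4297 under median scaling, 4882 with array weights and 2046 to 4453 without an array. Calls between the ligands (76) were 32 under median scaling, 129 with cyclic loess, 229 with the term and 536 on bright arrays. They were 674 with array weights and 19 to 109 without an array. Median scaling turned the sign of 7 members with GDF11 and 7 with TGFB1, of which 6 with TGFB1 were called before or after, *Actb* (0.57), *Tpm4* (0.86), *Ilk* (0.98), *Lima1* (0.052), *Cfl1* (0.90) and *Limk1* (0.63), as it moved the median of all genes by 0.69. Across single members and settings, 1747 values kept direction and call, 120 turned sign with no call before or after, 72 gained a call, 56 lost one and 6 reversed. The causes were not tested. Signal near background limits *Tln1*, *Rdx*, *Enah*, *Vasp* and *Acta2*.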
